A study of Bos taurus with 36 samples.

Results

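The glucocorticoid axis of the liver was described here through 7 genes: SERPINA6, which encodes corticosteroid-binding globulin (CBG), HSD11B1, NR3C1, FKBP5, FKBP4, SGK1 and TSC22D3. All probe sets of the array whose single annotated gene was 1 of these 7 were taken, under the current symbol or a synonym. They came to 9 of the 24128 probe sets and covered 6 of the 7 genes: 1 probe set each for SERPINA6, HSD11B1, FKBP5 and FKBP4, 2 for NR3C1 and 3 for SGK1. TSC22D3 (GILZ), a leucine zipper protein that glucocorticoids induce in many cells, was paired with no probe set in the annotation used and was not analysed here. The probe sets of 1 gene share their target and are not separate pieces of evidence.

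Cortisol circulates mostly bound to CBG, a serpin without protease inhibitor activity that is made in the liver, and the bound hormone is held back from most cells. In hepatocytes the enzyme encoded by HSD11B1 turns inactive cortisone back into cortisol. The hormone binds the glucocorticoid receptor, encoded by NR3C1, which waits in the cytoplasm in a complex with the chaperone HSP90 and a co-chaperone. FKBP5 (FKBP51) keeps the affinity of the complex for the hormone low, whereas FKBP4 (FKBP52) links it to transport into the nucleus. FKBP5, SGK1 and TSC22D3 are also among the classical target genes of the activated receptor, and FKBP5 thus closes a short feedback loop.

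The samples were liver biopsies of 8 healthy Holstein-Friesian cows that had calved once, from 9 to 12 weeks earlier. At time 0 each cow received 200 µg of E. coli LPS (0111:B4) in 10 ml saline into the right front gland of the udder and saline alone into the left front gland. Biopsies of all 8 cows were hybridised at −22, 9 and 48 h, and those of cows 1, 3, 7 and 8 also at 3, 6 and 12 h, which gave 36 arrays with 1 cow and 1 hour on each. Unless said otherwise, changes are against the mean −22 h value of all 8 cows, also at 3, 6 and 12 h. Counts of cows higher or lower compare each cow with its own −22 h value. No array of a cow without LPS was used. The clock time moves with the hour, so it cannot be told apart from time since LPS. The number of earlier biopsies moves with the hour too, except that at 9 and 48 h it also differs between cows 1, 3, 7 and 8 and the other 4. Values are log2 expression after GCRMA, and they ran from 0.69 to 16.37 over all arrays. The number of cows limits the precision of every change.

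Of the arrays, 2 stood apart from their hour. When each array was placed along the mean change of all probe sets from −22 h (0%) to 9 h (100%), the −22 h array of cow 1 lay at 10.3%, against −3.08% to 2.52% for the other 7, and the 48 h array of cow 2 lay at 24.8%, against 1.10% to 4.27%. The hepatocyte markers were the brightest of the marker lists, with a summed level of 18.08 to 18.24 (log2) at 9 h and 18.21 to 18.55 at −22 h. At 9 h 7 of these 10 markers were lower and 1 higher, beside 28.4% and 36.6% of all 9155 genes. The summed level of 13 leukocyte markers was 13.06 to 14.86 at 9 h and 12.07 to 12.47 at −22 h, with S100A8 and S100A9 rising most, 5 of 13 higher and none lower (36.6% and 28.4% of all 9155 genes, each read through its brightest probe set), and CD2, ITGAM and CD79A dim (log2 below 5) on every array. The summed level of 6 Kupffer cell markers was 13.30 to 14.20 at 9 h and 14.01 to 14.85 at −22 h, with 4 of 6 lower, none higher (beside the same 28.4% and 36.6%) and VSIG4 dim on every array. In a piece of whole liver, fewer cells of a type and less RNA per cell cannot be told apart, and the part of these shifts in the results below was not tested.

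Against −22 h, and with a change called at a Benjamini-Hochberg-adjusted p below 0.05 in limma over all probe sets, 2 of the 9 probe sets were higher and 1 lower at 3 h, beside 3.50% higher and 2.40% lower among all probe sets. At 6 h 4 were higher and 2 lower, beside 23.3% higher and 22.0% lower among all probe sets. At 9 h these counts were again 4 and 2, beside 32.0% and 22.6%. At 12 h 3 were higher and 2 lower, beside 22.2% and 18.9%. At 48 h 1 was higher and 1 lower, beside 17.9% and 12.2%. With 9 probe sets of 6 genes, such counts say little about the set as a whole, and the results lie in what the single genes did and when.

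**Figure D1:**
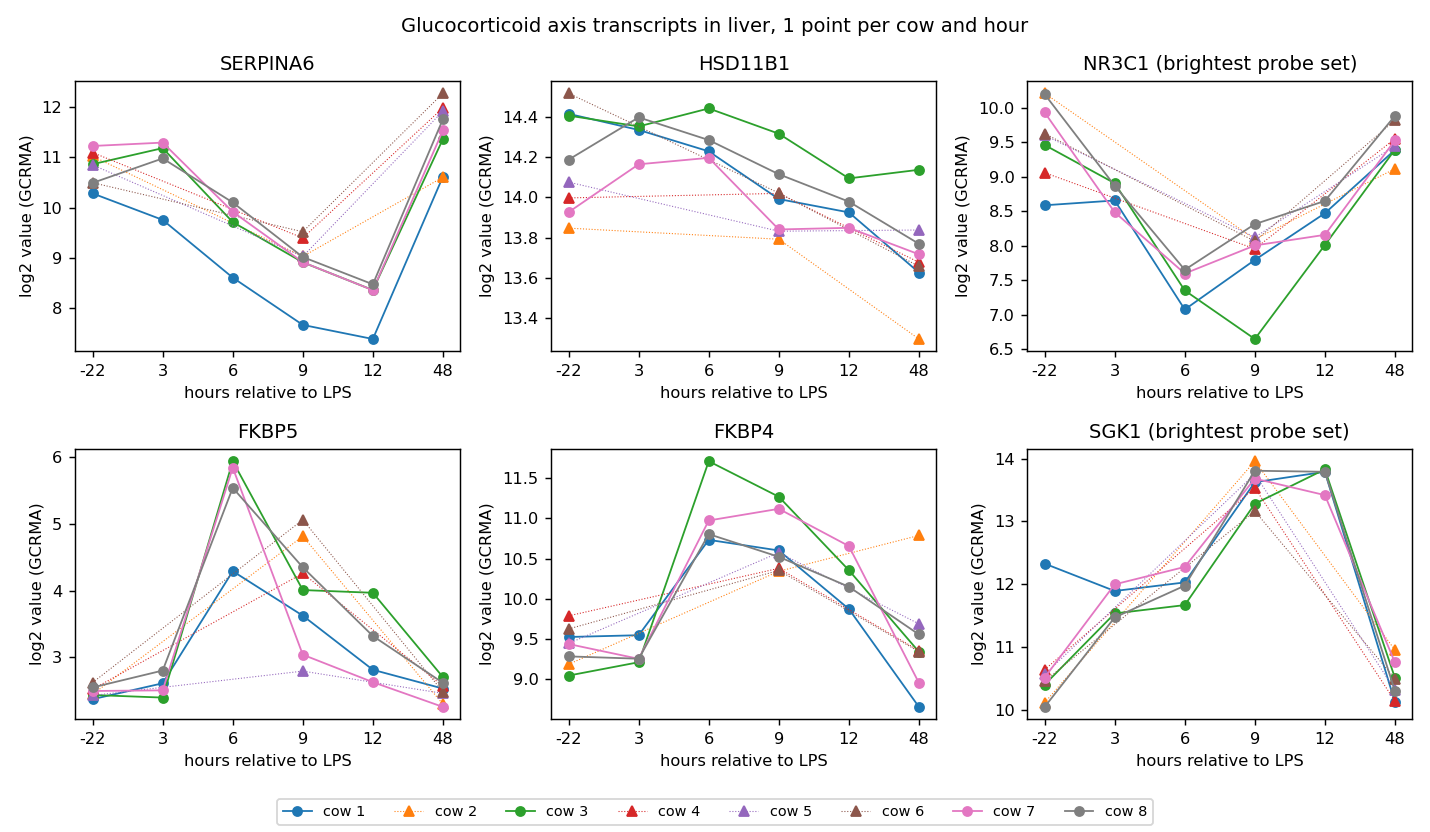
Log2 expression (y axis, a scale of its own in each panel) of SERPINA6, HSD11B1, NR3C1, FKBP5, FKBP4 and SGK1 at each hour relative to LPS (x axis, evenly spaced categories), 1 point per cow. Circles and solid lines mark the 4 cows with all 6 hours, triangles and dotted lines the 4 cows with 3 hours; SERPINA6 reached its lowest value at 12 h and FKBP5 its highest at 6 h in each of the 4 fully sampled cows.

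Expression of SERPINA6, the carrier of cortisol in blood, was lower at 6, 9 and 12 h and lowest at 12 h, with a log2 change of −2.64, or 6.22-fold down. Its levels over the course were a median of 10.85 at −22 h, 11.08 at 3 h, 9.81 at 6 h, 9.03 at 9 h, 8.36 at 12 h and 11.64 at 48 h. At 12 h cows 1, 3, 7 and 8 had values of 7.40, 8.37, 8.36 and 8.48, against 10.28, 10.86, 11.22 and 10.49 in the same cows at −22 h. Every cow at 6, 9 and 12 h lay below every cow at −22 h, so these groups did not overlap.

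At 3 h the 4 values of SERPINA6 were 9.76, 11.18, 11.29 and 10.97, below, within and above the range at −22 h, with a log2 change of 0.01 (SE 0.33, 95% interval −0.67 to 0.69). The change was −1.20 at 6 h (SE 0.33, adjusted p = 0.00343, limma), −1.85 at 9 h (SE 0.27, adjusted p = 5.86e-07) and −2.64 at 12 h (SE 0.33, adjusted p = 5.45e-08), with all cows lower at each of the 3 hours. Within single cows the fall at 12 h ranged from −2.01 in cow 8 to −2.89 in cow 1. Cow 1 was the lowest cow at each of the 5 hours from −22 to 12 h.

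At 48 h the values of SERPINA6 ran from 10.60 to 12.26 (median 11.64), against 10.28 to 11.22 (median 10.85) at −22 h. Of the 8 cows, 6 lay above all −22 h values and cows 1 and 2 did not, so the groups overlapped. The change was 0.71 (SE 0.27, higher in 7 of 8 cows, adjusted p = 0.0473, limma), and 1.64-fold. The call was lost without cow 3, 4, 5, 6, 7 or 8 (adjusted p = 0.0960, 0.0875, 0.0908, 0.129, 0.05 and 0.113), without the −22 h array of cow 1 (0.097) and with the 4 fully sampled cows (0.327), whereas the fit with the cow as a block gave 0.00164. Between 12 and 48 h the change of SERPINA6 was 3.35 (SE 0.33).

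HSD11B1, which regenerates cortisol inside the cell, showed no change past the test up to 12 h in the fit without a cow term and was lower at 48 h, by 1.37-fold. With the cow as a block it was called lower at 9 and 12 h too. Its values lay near the upper end of the scale on every array, where the size of a rise can be understated. At 3 h its values were 14.34, 14.35, 14.16 and 14.40 and at 6 h 14.23, 14.44, 14.20 and 14.28 in cows 1, 3, 7 and 8, against 13.85 to 14.52 (median 14.13) in the 8 cows at −22 h. These groups overlapped fully. The changes of 0.14 at 3 h (SE 0.12, 95% interval −0.10 to 0.38) and 0.12 at 6 h (SE 0.12, −0.12 to 0.36) did not pass the test.

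At 9 and 12 h HSD11B1 changed by −0.18 (SE 0.10, lower in 7 of 8 cows, adjusted p = 0.103) and by −0.21 (SE 0.12, lower in 4 of 4 cows, adjusted p = 0.173). With the cow as a block these became −0.18 (adjusted p = 0.0156) and −0.29 (adjusted p = 0.0040), both past the threshold. At 48 h the values ran from 13.30 to 14.14 (median 13.70), against 13.85 to 14.52 (median 14.13) at −22 h. Only cow 3 lay inside the −22 h range, and every cow was lower than its own −22 h value. The change at 48 h was −0.46 (SE 0.10, adjusted p = 0.000862, limma), and it passed the test in all 18 alternative fits, with values from −0.49 to −0.33. At the same hour SERPINA6, NR3C1, FKBP5, FKBP4 and SGK1 each lay within or above their −22 h range in at least 6 of 8 cows.

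NR3C1, the receptor gene, was lower at 6, 9 and 12 h and lowest at 6 h, with a log2 change of −2.17, or 4.49-fold down, on its first probe set. In each of the 4 fully sampled cows its lowest hour came before that of SERPINA6. The values of this probe set had a median of 9.61 at −22 h, 8.76 at 3 h, 7.47 at 6 h, 8.03 at 9 h, 8.31 at 12 h and 9.49 at 48 h. At 6 h cows 1, 3, 7 and 8 had 7.07, 7.35, 7.60 and 7.65, against 8.59, 9.46, 9.93 and 10.20 in the same cows at −22 h. Every cow at 6 and 9 h lay below every cow at −22 h, and at 12 h 3 of 4 did.

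The change of NR3C1 was −2.17 at 6 h (SE 0.25, adjusted p = 7.94e-09, limma), −1.71 at 9 h (SE 0.20, adjusted p = 8.29e-09) and −1.26 at 12 h (SE 0.25, adjusted p = 7.05e-05), lower in every cow at each hour. At 48 h it was −0.07 (SE 0.20, 95% interval −0.48 to 0.34, lower in 5 of 8 cows). Cow 3 departed from the others: its value at 9 h was 6.65, against 7.79 to 8.31 in the other 7 cows, and its lowest hour was 9 h, whereas cows 1, 7 and 8 had theirs at 6 h. At 3 h the values were 8.66, 8.91, 8.49 and 8.87 in cows 1, 3, 7 and 8, and 8.59 to 10.21 at −22 h. That is a change of −0.86 (SE 0.25, lower in 3 of 4 cows, adjusted p = 0.0323), with overlapping groups. This early call was lost without cow 2, 5, 6, 7 or 8 (adjusted p = 0.0678, 0.0568, 0.0576, 0.232 and 0.118) and with the 4 fully sampled cows (0.248).

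The second NR3C1 probe set was dim on every array, with values of 2.70 to 3.22, and its changes lay between −0.15 and 0.05 with no call at any hour. A fall cannot be read from values this low, so the second probe set does not bear on the first. Averaging both probe sets of the gene gave −1.12 at 6 h and −0.90 at 9 h, both called. With the second probe set nearly flat, this average mostly scales down the first and is no separate support.

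FKBP5, the receptor's inhibitory co-chaperone and 1 of its target genes, was near the lower end of the scale before LPS and rose briefly, with a peak at 6 h. It had a median of 2.47 at −22 h, 2.56 at 3 h, 5.69 at 6 h, 4.13 at 9 h, 3.07 at 12 h and 2.51 at 48 h. At 6 h cows 1, 3, 7 and 8 had 4.29, 5.93, 5.84 and 5.54, against 2.38, 2.44, 2.50 and 2.55 in the same cows at −22 h. All cows at 6 and 9 h lay above all cows at −22 h. At 12 h they did so only barely, with 2.631 in cow 7 against 2.6254 in cow 6 at −22 h, both near the lower end of the scale. Cow 1 rose least at 6 h.

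The change of FKBP5 was 2.91 at 6 h (SE 0.30, adjusted p = 1.19e-09, limma), or 7.53-fold, and 1.51 at 9 h (SE 0.25, adjusted p = 3.64e-06), or 2.84-fold, higher in every cow at both hours. Because the −22 h values are that low, these folds understate the change if the transcript was below detection before LPS. The cows differed widely at 9 h, with values of 3.62, 4.81, 4.01, 4.26, 2.80, 5.06, 3.04 and 4.35 in cows 1 to 8, against 2.38 to 2.63 at −22 h. Cow 5 was nearest to its −22 h level and cow 6 farthest from it. At 12 h the values were 2.82, 3.97, 2.63 and 3.32 in cows 1, 3, 7 and 8, a change of 0.70 (SE 0.30, higher in 4 of 4 cows, adjusted p = 0.0663). This change passed the test with the cow as a fixed block (0.77, adjusted p = 0.0366) and as a random block (0.72, 0.0435). It also passed with array weights (0.86, 0.0292) and without cow 7 (0.88, 0.0366). Without dim probe sets the change was the same 0.70 and passed (0.0363), adjusted over only 12479 probe sets. FKBP5 stayed in that fit only through its values at 6 and 9 h, so this fit is no separate support. At 3 and 48 h the changes were 0.09 (95% interval −0.52 to 0.71) and 0.01 (−0.50 to 0.51).

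FKBP4, the co-chaperone linked to nuclear transport of the receptor, was well expressed before LPS and rose in the same hours as FKBP5, most at 6 h with a log2 change of 1.64. Its median was 9.44 at −22 h, 9.26 at 3 h, 10.89 at 6 h, 10.55 at 9 h, 10.25 at 12 h and 9.35 at 48 h. At 6 h cows 1, 3, 7 and 8 had 10.73, 11.71, 10.97 and 10.81, against 9.53, 9.05, 9.44 and 9.29 in the same cows at −22 h. All cows at 6, 9 and 12 h lay above all cows at −22 h, and cow 3 was the highest at 6 and 9 h.

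The change of FKBP4 was 1.64 at 6 h (SE 0.25, adjusted p = 1.36e-06, limma), or 3.11-fold, 1.23 at 9 h (SE 0.20, adjusted p = 3.80e-06), and 0.84 at 12 h (SE 0.25, adjusted p = 0.00563), higher in every cow. The call at 12 h was lost without cow 7 (0.71, adjusted p = 0.0508). At 3 h the change was −0.10 (95% interval −0.60 to 0.40). At 48 h it was 0.04 (−0.37 to 0.45), with values of 8.66 to 10.79 (median 9.35), against 9.05 to 9.79 (median 9.44) at −22 h. The 10.79 belonged to cow 2, whose 48 h array stood apart, while the other 7 cows had 8.66 to 9.69.

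SGK1, a kinase that regulates ion channels and transporters and a target gene of the receptor, was higher at 3, 6, 9 and 12 h, most at 12 h with a log2 change of 3.07 on its first probe set and 3.77 on its second. The step from 9 to 12 h was 0.11 (SE 0.25, adjusted p = 0.80, limma) and 0.28 (SE 0.37, adjusted p = 0.63), so these hours were not told apart. Values at 9 and 12 h lay near those of HSD11B1, where the size of a rise can be understated. Its first probe set had a median of 10.49 at −22 h, 11.72 at 3 h, 12.01 at 6 h, 13.65 at 9 h, 13.79 at 12 h and 10.41 at 48 h. At 9 h the 8 cows lay between 13.17 and 13.96, against 10.05 to 12.33 at −22 h, and at 12 h cows 1, 3, 7 and 8 had 13.79, 13.83, 13.42 and 13.79. No cow at 9 or 12 h overlapped with −22 h.

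The −22 h values of SGK1 held 1 cow apart: cow 1 had 12.33 on the first probe set and 11.88 on the second, against 10.05 to 10.64 and 8.27 to 9.69 in the other 7. This is the −22 h array that lay 10.3% along the mean 9 h change. At 3 and 6 h the first probe set had 11.89 and 12.03 in cow 1, below its own −22 h value, while cows 3, 7 and 8 each rose.

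The change of SGK1 on the first probe set was 1.09 at 3 h (SE 0.25, adjusted p = 0.00484, limma), 1.35 at 6 h (SE 0.25, adjusted p = 3.20e-05), 2.96 at 9 h (SE 0.20, adjusted p = 3.98e-14) and 3.07 at 12 h (SE 0.25, adjusted p = 4.95e-12). Of the 4 cows, 3 were higher at 3 and 6 h, and every cow was higher at 9 and 12 h. Without the −22 h array of cow 1, a choice made after the data were seen, these changes were 1.33, 1.59, 3.20 and 3.31, all called. The call at 3 h was lost without cow 7 (0.98, adjusted p = 0.0651), with the 4 fully sampled cows (0.90, 0.197) and when the probe sets of the gene were averaged (0.73, 0.0862). At 48 h the first probe set had 10.13 to 10.96 (median 10.41), against 10.05 to 12.33 (median 10.49) at −22 h, and the change was −0.18 (95% interval −0.60 to 0.23).

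The second SGK1 probe set followed the first across the arrays, as the plot of the probe sets against each other shows, with changes of 1.34 at 3 h (SE 0.37, adjusted p = 0.0223), 1.42 at 6 h (SE 0.37, adjusted p = 0.00181), 3.48 at 9 h (SE 0.30, adjusted p = 8.23e-12) and 3.77 at 12 h (SE 0.37, adjusted p = 2.79e-10). The last of these was 13.6-fold. Its call at 3 h was lost with the cow as a block (1.25, adjusted p = 0.0715), without cow 3, 6, 7 or 8 (0.0771, 0.0514, 0.165 and 0.114) and with the 4 fully sampled cows (0.393), and with those 4 cows the call at 6 h was lost too (0.0786). The third SGK1 probe set was dim, with medians of 2.37 to 2.48 over the hours, and was called at no hour. It was highest in cow 1 at −22 h, with 3.95, and in cow 3 at 9 h, with 3.37, and without cow 1 its change at 9 h was 0.26 (adjusted p = 0.0341). At 9 h the leukocyte marker sum was higher together with SGK1 and FKBP5, and the hepatocyte and Kupffer cell sums were lower together with SERPINA6 and NR3C1, by the ranges given above. Of the 13 leukocyte markers, 5 were higher and 8 not called, with a median change of 0.15. The leukocyte sum therefore does not stand for most of them. From 6 h (4 cows) to 9 h (8 cows) the median leukocyte sum went from 13.39 to 13.74. Over the same step the median of the first SGK1 probe set rose from 12.01 to 13.65 and that of FKBP5 fell from 5.69 to 4.13. From 6 to 12 h the median hepatocyte and Kupffer cell sums went from 18.24 to 18.10 and from 13.72 to 13.34. The median of SERPINA6 fell from 9.81 to 8.36 over these hours, whereas that of the first NR3C1 probe set rose from 7.47 to 8.31.

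**Figure D2:**
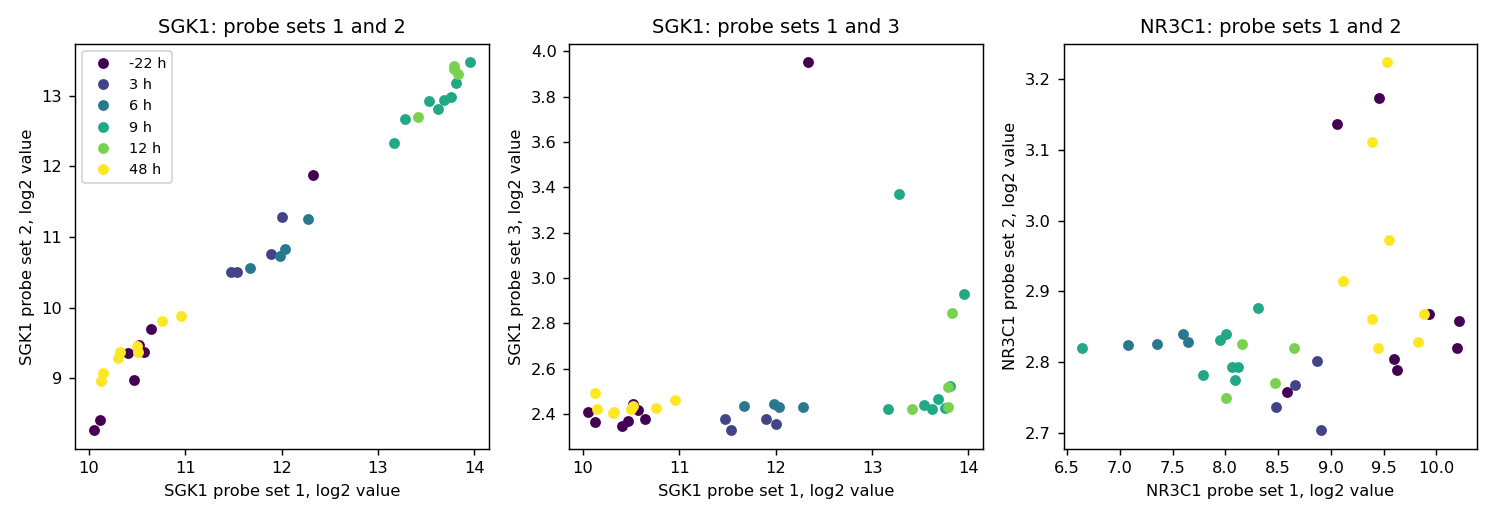
Log2 expression of 2 probe sets of the same gene on the same array, 1 point per array and colour by hour relative to LPS: SGK1 probe sets 1 and 2 (left), SGK1 probe sets 1 and 3 (middle) and NR3C1 probe sets 1 and 2 (right), with different scales on the axes. The first 2 SGK1 probe sets moved together, from 10.05 to 13.96 on the first, whereas the third SGK1 probe set (mostly near 2.4) and the second NR3C1 probe set (2.70 to 3.22) stayed dim.

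Between successive hours the steps differed from gene to gene. With the rule of the study's methods (Bonferroni-adjusted p below 0.01 in limma, here over all probe sets within a comparison), none of the 9 probe sets was differentially expressed (DE) between −22 and 3 h, where 1.09% of all probe sets were. FKBP5 was the only one of the 9 between 3 and 6 h, beside 8.16%, with a step of 2.82 (SE 0.35, Bonferroni-adjusted p = 9.80e-05). SGK1 on its first probe set was the only one between 6 and 9 h, beside 4.84%, with a step of 1.61 (SE 0.25, Bonferroni-adjusted p = 0.00831). None was DE between 9 and 12 h, beside 2.79%. Between 12 and 48 h 3 were DE, beside 16.1%: SERPINA6 with 3.35 and SGK1 with −3.25 and −3.79 on its first and second probe sets.

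From 6 to 9 h FKBP5 and SGK1, both known targets of the receptor, moved in opposite directions. FKBP5 changed by −1.41 (SE 0.30, Benjamini-Hochberg-adjusted p = 0.000544, limma) and the first SGK1 probe set by 1.61 (SE 0.25, adjusted p = 7.36e-06). Of the 4 cows with both hours, FKBP5 was lower at 9 h than at 6 h in each, and SGK1 was higher in each. FKBP5 was highest at 6 h in all 4 of these cows, whereas the first SGK1 probe set was highest at 12 h in cows 1 and 3 and at 9 h in cows 7 and 8. On the second SGK1 probe set cow 8 was highest at 12 h too. FKBP4 was highest at 6 h in cows 1, 3 and 8 and at 9 h in cow 7, and its step between 3 and 6 h (1.74, SE 0.29) had a Bonferroni-adjusted p of 0.0227. NR3C1 changed most between 3 and 6 h too, by −1.31 (SE 0.29, Benjamini-Hochberg-adjusted p = 0.000428).

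**Figure D3:**
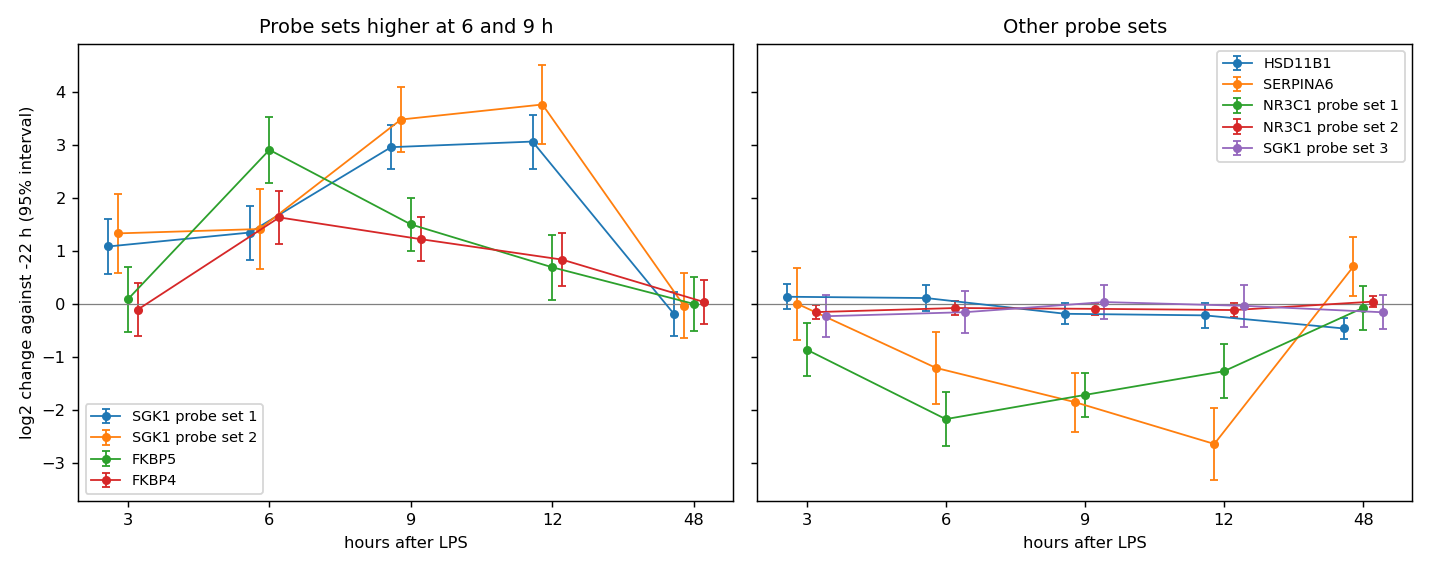
Log2 change against −22 h (y axis) at each hour after LPS (x axis, evenly spaced categories) for the 4 probe sets that were higher at 6 and 9 h (left) and the other 5 (right), with bars for the 95% interval from limma. FKBP5 peaked at 6 h with 2.91, while NR3C1 was lowest at 6 h with −2.17 and SERPINA6 at 12 h with −2.64. SGK1 was highest at 12 h with 3.07 and 3.77, not told apart from 9 h (2.96 and 3.48).

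Cows 2, 4, 5 and 6 had fewer biopsies before the 9 and 48 h samples, which allowed the change of the members to be compared by biopsy schedule (cows 1, 3, 7 and 8 with 6 biopsies in all, against those 4 cows with 3). No member differed at either hour in limma, beside 0.0124% of all probe sets at 9 h and 0% at 48 h, and none had an unadjusted p below 0.05, against 667 probe sets (2.76%) at 9 h and 398 (1.65%) at 48 h. The smallest unadjusted p was that of FKBP4 at 9 h, with a change of 1.55 in the cows with 6 biopsies and 0.90 in the cows with 3, a difference of 0.65 (SE 0.37, 95% interval −0.13 to 1.44, adjusted p = 0.956, limma). The intervals are wide, with −1.48 to 0.56 for SERPINA6 and −1.42 to 0.55 for FKBP5 at 9 h, so differences of about the size of a 2-fold change cannot be told from none with these numbers of cows.

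Cows high in 1 member were not shown to be high or low in another at the same hour. Over 15 pairs of genes at −22, 9 and 48 h, 45 in all, none passed Benjamini-Hochberg adjustment, and 4 had an unadjusted exact permutation p below 0.05 (8 cows, two-sided). The smallest was that of NR3C1 and SGK1 at −22 h, with r = −0.86 (exact permutation p = 0.0014, adjusted p = 0.0625) and rho = −0.81 (exact permutation p = 0.0218, adjusted p = 0.327). Without the 2 cows farthest from the median of NR3C1, r was −0.76. Cow 1, with the array that stood apart, was lowest in NR3C1 (8.59) and highest in SGK1 (12.33).

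Other genes followed the members closely over the 36 arrays, among 6339 genes with a log2 value of at least 5 on 4 arrays or more. These correlations describe a shared course over the hours, since all points share the same arrays and cows, and were not tested. For SERPINA6 they were TM7SF2, a sterol reductase (r = 0.94), PTGR1, a prostaglandin reductase (r = 0.94), and IDH1, the cytosolic isocitrate dehydrogenase (r = 0.93). For NR3C1 they were INSIG2, a sensor of sterols in the endoplasmic reticulum (r = 0.93), ATG4C, a protease of autophagy (r = 0.93), and SEPHS2, a selenophosphate synthetase (r = 0.92). INSIG2 changed by −1.99 at 6 h and −2.05 at 9 h.

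For FKBP5 the closest genes were ITGA2, an integrin chain (r = 0.89), CCNC, cyclin C (r = 0.88), and MTHFD2, a mitochondrial folate enzyme (r = 0.87), with changes of 2.82, 2.35 and 3.60 at 6 h. For FKBP4 they were CCT4, a subunit of the chaperonin CCT (r = 0.93), PTGES3, the HSP90 co-chaperone p23 (r = 0.92), and RAD52, a protein of DNA repair (r = 0.91). For SGK1 they were QTRT1, a subunit of a tRNA guanine transglycosylase (r = 0.97), HCCS, which attaches heme to cytochrome c (r = 0.97), and SRPRA, a subunit of the signal recognition particle receptor (r = 0.96). HSD11B1 had no match as close: PHYH, a peroxisomal hydroxylase, reached r = 0.77, PON1, the plasma paraoxonase, 0.73, and CEPT1, a phospholipid synthase, 0.71. PHYH was likewise lowest at 48 h, with a change of −0.82.

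Around the members, the genes of the receptor's chaperone machinery mostly rose. Of 17 measured, each read through its brightest probe set, 12 were higher and 3 lower at 6 h, with a median change of 1.78, against 0.02 over all 9155 genes, of which 26.0% were higher and 29.3% lower. At 9 h 10 were higher and 4 lower, with a median of 0.93, against 0.04 over all genes, of which 36.6% were higher and 28.4% lower. The 2 HSP90 genes of the cytosol, HSP90AA1 and HSP90AB1, changed by 1.82 (SE 0.19) and 1.78 (SE 0.15) at 6 h. DNAJB1, a J-domain co-chaperone, had the largest change at 6 h with 4.33 (SE 0.61) and 2.03 (SE 0.50, adjusted p = 0.000851) at 9 h. HSPA4, of the HSP110 family, changed by 3.13 (SE 0.22) at 6 h and 2.20 (SE 0.18) at 9 h, and AHSA1, which activates the ATPase of HSP90, by 2.86 (SE 0.24) and 1.96 (SE 0.20).

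Not every co-chaperone rose. UNC45A, a myosin and HSP90 co-chaperone, was lower by −1.77 (SE 0.20) at 6 h and −2.21 (SE 0.17, adjusted p = 3.93e-13) at 9 h. PPID, a cyclophilin that shares its place on HSP90 with FKBP5 and FKBP4, was lower by −0.74 (SE 0.13) and −1.62 (SE 0.11). HSPA1A and HSPA8, both of the HSP70 family, were higher at 6 h, by 2.32 (SE 0.57) and 1.94 (SE 0.31), and not called at 9 h, with −0.40 and 0.21. HSP90AA1, HSP90AB1, PPID, HSPA1A and HSPA8 fall outside the naming rule and were chosen after their values were seen.

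The genes listed for cortisol activation and clearance were, where measured, lower or not called. Of 7 measured, none was higher and 4 were lower at 6 h, beside 26.0% and 29.3% of all genes. At 9 h none was higher and 5 were lower, beside 36.6% and 28.4%, with a median change of −0.48. AKR1C3 and AKR1C4, known in humans as aldo-keto reductases of steroids, changed by −8.49 (SE 0.28) and −1.10 (SE 0.13) at 9 h. Both belong to a family of near-identical copies, so the gene behind each probe set is uncertain. POR, which passes electrons to the cytochromes P450, changed by −2.02 (SE 0.12, adjusted p = 1.63e-15) and CYP3A28, of the family that hydroxylates cortisol, by −0.48 (SE 0.13, adjusted p = 0.00198). HSD11B2, which inactivates cortisol in the kidney, was dim at −22 h (2.00) and changed by 0.04 at 9 h (adjusted p = 0.0539, limma). ABCB1 was dim too (2.38), so a fall could not be read for either. NR3C2, the mineralocorticoid receptor gene, H6PD, which supplies NADPH to the HSD11B1 enzyme, and AKR1D1, a steroid reductase, were paired with no probe set and were not analysed here. The same holds for SRD5A1, SRD5A2 and SRD5A3, so several genes of cortisol clearance were not measured.

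Genes known from other settings to respond to glucocorticoids moved in both directions. Of 17 in the general list, 6 were higher and 4 lower at 6 h (median 0.46), beside 26.0% and 29.3% of all genes, and 9 were higher and 5 lower at 9 h (median 0.63), beside 36.6% and 28.4%. With 17 genes, nothing is read from these counts about the list. IL1R2, the decoy receptor of IL-1, rose by 2.62 (SE 0.32), ZBTB16, a transcription factor, by 2.56 (SE 0.41) and ALOX5AP, which serves leukotriene synthesis in leukocytes, by 2.78 (SE 0.36) at 9 h. CDKN1C, an inhibitor of the cell cycle, fell by 2.93 (SE 0.28, adjusted p = 1.25e-10). ALOX5AP had a mean of 2.38 at −22 h, near the lower end of the scale. It rose together with the leukocyte marker sum, in which 8 of 13 markers were not called.

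Of 18 glucocorticoid-responsive genes of liver metabolism, 6 were higher and 7 lower at 6 h (median −0.16), and 9 were higher and 6 lower at 9 h (median 0.48), beside the shares over all genes (26.0% and 29.3% at 6 h, 36.6% and 28.4% at 9 h). SDS, serine dehydratase, rose by 7.29 (SE 0.39) and the metallothionein genes MT1A and MT2A by 7.22 (SE 0.57) and 4.81 (SE 0.42) at 9 h, each higher in all 8 cows. Metallothioneins are a family of similar copies whose probe sets can cross-hybridise. PDK4, a kinase that shuts off pyruvate dehydrogenase, fell by 4.84 (SE 0.44), lower in all 8 cows. Many of these genes are also targets of cytokines, insulin and other signals, and the part of cortisol in any of these changes was not tested.

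**Figure D4:**
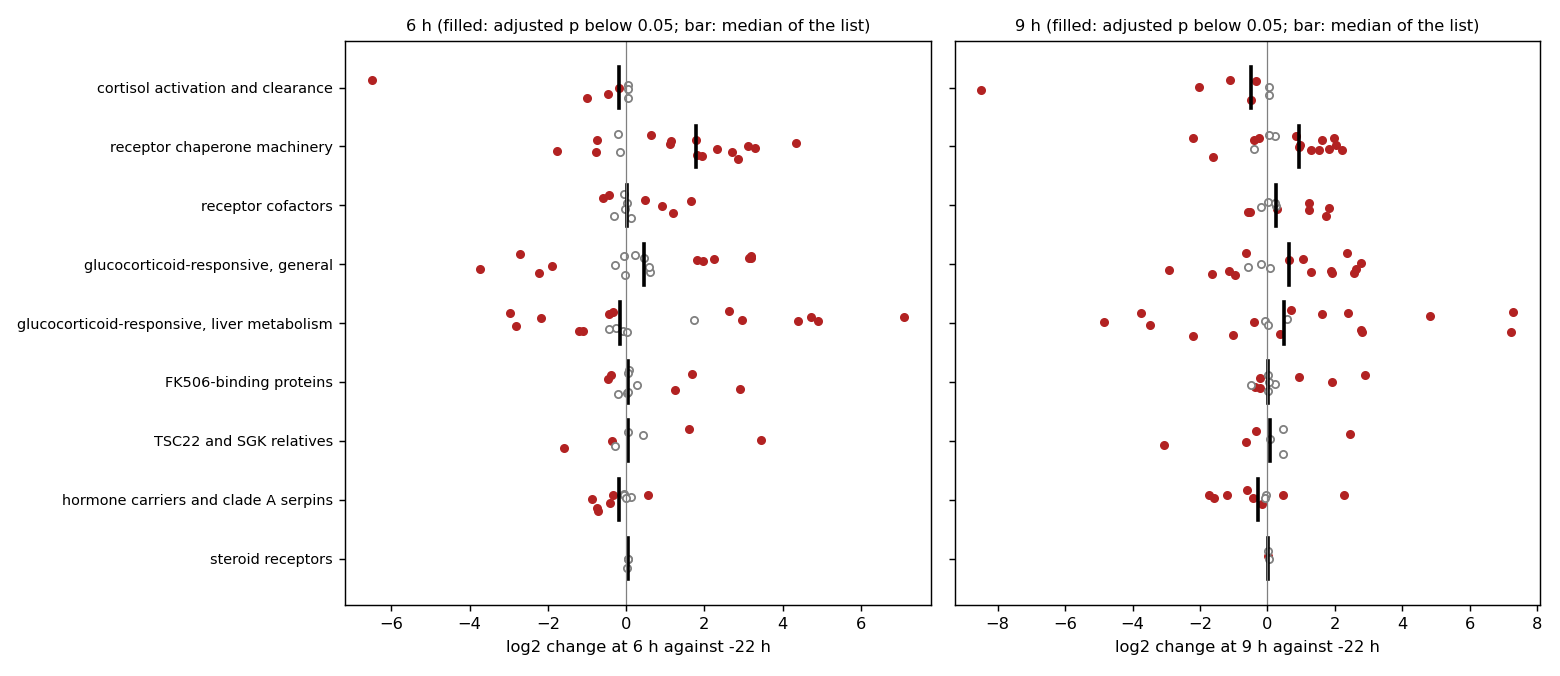
Log2 change against −22 h (x axis) at 6 h (left) and 9 h (right) of the genes in 9 lists around the axis (y axis), 1 point per gene, with the points spread vertically only for legibility. Filled points passed the test, open points did not, and the black bar is the median of the list: 1.78 at 6 h and 0.93 at 9 h for the receptor chaperone machinery, and −0.18 and −0.48 for cortisol activation and clearance.

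Of 11 cofactors of the receptor that were measured, 4 were higher and 2 lower at 6 h, and 5 were higher and 2 lower at 9 h (median 0.26), beside the shares over all genes (26.0% and 29.3% at 6 h, 36.6% and 28.4% at 9 h). The helicase DDX5 rose by 1.73 (SE 0.13), TDG, a DNA glycosylase, by 1.84 (SE 0.11), PRMT1, an arginine methyltransferase, by 1.24 (SE 0.14) and SMARCA4, an ATPase of the SWI/SNF complex, by 1.22 (SE 0.14) at 9 h. Of the other steroid receptors, PGR, ESR1 and ESR2 were all dim, and PGR passed the test at 9 h with a change of only 0.03 (adjusted p = 0.0482). Among 10 other hormone carriers and clade A serpins, 1 was higher and 5 lower at 6 h, beside 26.0% and 29.3% of all genes, and 2 were higher and 6 lower at 9 h (median −0.29), beside 36.6% and 28.4%. SHBG, the carrier of sex steroids, changed by −1.73 (SE 0.15), SERPINA7, the thyroxine-binding globulin, by −1.59 (SE 0.08) and RBP4, the carrier of retinol, by −1.19 (SE 0.08), each lower in all 8 cows at 9 h. At 12 h SERPINA7 and SHBG changed by −2.13 and −2.12, beside −2.64 for SERPINA6. SERPINA14, uterine serpin, rose by 2.27 (SE 0.59) at 9 h with a mean of 2.68 at −22 h, near the lower end of the scale.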

How the data were processed

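The deposited values are log2 expression per probe set of the Affymetrix Bovine Genome Array, made by the authors with GCRMA (background correction from probe sequence, quantile normalization and summary per probe set), and were used as deposited. Quantile normalization gives the probes of all arrays 1 distribution, so changes are relative to the other transcripts. Array medians lay between 4.15 and 4.38.

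Genes came from the platform annotation: among the 24128 probe sets, 112 of them controls, it pairs 13318 with a single gene and 86 with several, and leaves 10724 without an entry. Outside the members, a gene was read through its brightest probe set (9155 genes).

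A linear model of 1 mean per hour was fitted to every probe set (limma 3.58.1, R 4.3.3), with moderated variances and no cow term, as the study's methods state none. Each hour was compared with −22 h (Benjamini-Hochberg adjustment) and with the hour before (Bonferroni adjustment). The biopsy schedule was tested as a difference of changes, and pairs of members by exact permutation. The code was tested on simulated data.

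The −22 and 48 h arrays of the same cow deviated together (mean correlation of deviations 0.316, range 0.116 to 0.505, against −0.0446 between cows). Over all hours the random cow block gave a correlation within cow of 0.114. The cow is the same animal at every hour, so the cow block is a true pairing. The members and gene lists were chosen with earlier results of these data known. Named were all members, up to 4 genes per list with the largest change at 9 h among those called, 4 genes named in any case (NR3C2, HSD11B2, H6PD, AKR1D1) and the 3 genes closest to each member. Of 187 listed symbols, 140 had a probe set. Alternatives were a fixed and a random cow block, each cow left out, the 4 fully sampled cows, subtracting from each array the median over probe sets that average at least 5 (median centring), leaving out dim probe sets (those that do not reach a log2 value of 5 on 4 arrays), leaving out control probe sets, array weights, a trended robust variance prior, averaging the probe sets of a gene, and Bonferroni adjustment. Leaving out the −22 h array of cow 1 or the 48 h array of cow 2 was added after seeing the data. Figures were drawn in Python 3.11.15 with matplotlib 3.10.9. No sequence of a probe or gene was used here.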

Additional observations from a re-analysis of the deposited data

Results flagged for a closer look

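Of 54 groups of 4 or 8 values (9 probe sets at 6 hours), 9 held 1 cow farther from the others than Dixon's 95% limit allows, where chance alone gives about 1 in 20 groups. Cow 1 accounted for 6 of the 9. At −22 h it had 12.33 on the first SGK1 probe set (10.05 to 10.64 in the other 7 cows), 11.88 on the second (8.27 to 9.69) and 3.95 on the third (2.35 to 2.44). It was also the lowest in SERPINA6 at 9 h, with 7.67 (8.92 to 9.52 in the others), and at 12 h, with 7.40 (8.36 to 8.48), and the highest in FKBP4 at 3 h, with 9.55 (9.21 to 9.26). Cow 3 was the lowest in NR3C1 on its first probe set at 9 h, with 6.65 (7.79 to 8.31). Cow 7 was the lowest in SGK1 at 12 h, with 13.42 on the first probe set (13.79 to 13.83) and 12.69 on the second (13.30 to 13.41). The 3 SGK1 values at −22 h come from 1 array and 1 gene, as do those of cow 7 at 12 h, so they are not separate events.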

How the results depend on the processing

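Of 810 values of a member's change under an alternative, 775 kept their side of the threshold, 25 lost the call and 10 gained it. None turned its direction with a call. Some changes near 0 turned direction without a call in either fit, such as SERPINA6 at 3 h (−0.10 to 0.29). The calls of SERPINA6 and NR3C1 at 6, 9 and 12 h, of FKBP5 and FKBP4 at 6 and 9 h, of SGK1 at 9 and 12 h on both probe sets, and of HSD11B1 at 48 h held in every alternative fit at the Benjamini-Hochberg threshold. FKBP5 stayed in the fit without dim probe sets only through its values at 6 and 9 h. That fit is therefore no separate support for its calls at these hours, and the average of the NR3C1 probe sets is none for NR3C1. With the cow as a replicate block the counts of members called at 3, 6, 9, 12 and 48 h were 2, 6, 7, 7 and 2, against 3, 6, 6, 5 and 2 without it. Over all 24128 probe sets the counts were 1474, 10327, 13662, 10085 and 8237 with the block, against 1423, 10924, 13187, 9919 and 7270 without it. With only the 4 fully sampled cows no member was called at 3 h and 1 at 48 h, and over all probe sets 712 and 1436 were called, against 1423 and 7270 with all cows. Leaving out 1 cow gave 0 to 3 members at 3 h, 1 to 2 at 48 h and 3 to 5 between successive hours, with 938 to 1403 of all probe sets at 3 h and 3580 to 9761 at 48 h. Calls between successive hours were not counted over all probe sets in these fits, so nothing is read from their member counts. A Bonferroni-adjusted p below 0.01 against −22 h left 0 members at 3 h, 3 at 6 h, 4 at 9 h, 3 at 12 h and 0 at 48 h, by construction stricter. Over all probe sets this rule against −22 h was counted at 3 h only, with 1.09% called, so nothing is read from the member counts at the other hours. Median centring gave 13002 probe sets at 48 h, 11002 of them higher and 2000 lower, against 4329 and 2941 before it, and 3 members. Without dim probe sets 4019 were called at 48 h, from fewer probe sets, and array weights gave 3111 at 3 h and 11016 at 48 h. Without the −22 h array of cow 1, 1 member and 4611 probe sets were called at 48 h, and without the 48 h array of cow 2, 4740 probe sets. The causes were not tested.

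Probe sets near 2 to 3 on the log2 scale (FKBP5 before LPS, the second NR3C1 and the third SGK1 probe set) are not resolved from background by these values, and at 3, 6 and 12 h each mean rests on 4 cows.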

Other observations

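Of 11 other FK506-binding proteins, 3 were higher and 2 lower at 6 h, and 3 were higher and 3 lower at 9 h, beside the shares over all 9155 genes (26.0% higher and 29.3% lower at 6 h, 36.6% and 28.4% at 9 h). FKBP14 and FKBP11, both of the endoplasmic reticulum, rose by 2.90 (SE 0.39) and 1.93 (SE 0.24) at 9 h, each in all 8 cows, and FKBP7 by 0.93 (SE 0.35, adjusted p = 0.0285, limma) in 6 of 8. FKBP8, a mitochondrial member, changed by −0.36 (SE 0.10, adjusted p = 0.0027). FKBP14 changed by −0.01 at 48 h, whereas FKBP11 was still higher by 1.15 (SE 0.24, adjusted p = 0.000759).

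Of 7 relatives and partners of TSC22D3 and SGK1, 2 were higher and 2 lower at 6 h, and 1 was higher and 3 lower at 9 h, and with so few genes nothing is read from these counts beside the same shares over all genes. NDRG2, a phosphorylation target of SGK1, fell by 3.07 (SE 0.16) at 9 h and was lower in all 8 cows. SCNN1A, a subunit of the epithelial sodium channel that SGK1 regulates, was near the lower end of the scale at −22 h (mean 3.10) and changed by 3.44 (SE 0.34) at 6 h and 2.45 (SE 0.28) at 9 h, higher in all 8 cows at 9 h. TSC22D1 and TSC22D4, paralogs of TSC22D3, changed by −0.62 (SE 0.25, adjusted p = 0.0349) and −0.35 (SE 0.06, adjusted p = 1.33e-05) at 9 h.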
